A study of Homo sapiens with 4 samples.

Results

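OSGIN1, PIR, TRIM16, TRIM16L and UGDH are 5 genes linked to NRF2, and 4 of them had a named probe set among the 17687 genes measured in K562 cells. The genes were chosen by name from earlier results on these same arrays, in view of their log2 values at 0 h and their change after 24 h of hemin. Their own values are therefore given as a description, without a p-value. Whether limma called them is stated below, and nothing is read from it. No probe set used here was annotated to TRIM16L, so it is not analysed. The array has 1 probe set for each of the other 4 genes.

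K562 cells, a line established from a chronic myeloid leukemia, make hemoglobin when they are given hemin, an oxidized form of heme. The arrays compare K562 cells after 24 h in 50 µM hemin (T1, 2 arrays) with K562 cells collected before hemin (T0, 0 h, 2 arrays), all grown in RPMI medium with fetal calf serum, glutamine, penicillin and streptomycin. The methods add a DMSO vehicle with hemin, and whether the array cultures had it is not given in the sources used here. No array of cells kept for 24 h without hemin was used, so hemin and time in culture cannot be told apart. The labels call the 2 arrays of a time point biological replicates, without saying how the cultures were separated. Every p-value therefore judges a difference against the spread between these arrays, which limma moderates as described under the processing.

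NRF2, encoded by NFE2L2, is a transcription factor that KEAP1 holds in the cytoplasm and sends to degradation through a CUL3 ubiquitin ligase. Oxidants and electrophiles modify KEAP1, and NRF2 then enters the nucleus, pairs with a small MAF protein and binds antioxidant response elements. In erythroid cells BACH1, a repressor that heme inactivates, competes for the same elements. OSGIN1 encodes an oxidative stress-induced growth inhibitor. PIR encodes pirin, an iron-binding nuclear protein that interacts with BCL3 and NF-kappaB subunits. TRIM16 encodes a tripartite motif protein that takes part in the autophagy of damaged lysosomes, and TRIM16L, a related copy, is listed as a transcribed pseudogene in RefSeq. UGDH encodes UDP-glucose dehydrogenase, which makes UDP-glucuronate for glucuronidation and for glycosaminoglycan chains.

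The promoter of OSGIN1 is shown first, since this gene had the largest difference of the 4, and that of UGDH beside it. Both are the 250 bases before the gene's start in RefSeq (GRCh38.p14), read on the gene's strand, at chr16:83952990-83953239 (plus strand) for OSGIN1 and chr4:39527440-39527689 (minus strand) for UGDH. Capitals mark a match to the AP-1 core TGANTCA.
OSGIN1: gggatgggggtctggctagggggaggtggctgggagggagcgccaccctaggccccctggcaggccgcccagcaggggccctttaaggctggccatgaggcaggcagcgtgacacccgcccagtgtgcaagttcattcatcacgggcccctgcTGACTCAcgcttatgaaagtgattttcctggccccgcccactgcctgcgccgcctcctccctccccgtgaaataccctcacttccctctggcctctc
UGDH: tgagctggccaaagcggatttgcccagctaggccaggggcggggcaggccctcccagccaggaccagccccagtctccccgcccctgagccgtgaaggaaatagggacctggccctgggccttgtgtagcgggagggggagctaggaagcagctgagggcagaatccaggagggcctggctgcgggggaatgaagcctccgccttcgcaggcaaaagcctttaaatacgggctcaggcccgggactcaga

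Windows from 250 bases before to 50 bases after the start were searched on both strands for 3 short motifs. These were the core of the NRF2 and small MAF element (TGACNNNGC), the AP-1 core (TGANTCA) and a heat shock core (GAANNTTC). The first 2 overlap where a stretch reads TGACTCAGC. All 4 measured genes had a window, but that of TRIM16 begins at a start inside its RefSeq gene span, not at the outermost one. The OSGIN1 window held the AP-1 core, with its first base 97 bases before the start, and no NRF2 core. The PIR window held both in 1 overlapping stretch, whose first base lies 26 bases after the start. No match to any of the 3 was found in the windows of UGDH and TRIM16. The NRF2 core was thus in 1 of 4 windows, against 13.6% of all 27305 windows, the AP-1 core in 2 of 4, against 7.76%, and the heat shock core in 0 of 4, against 6.87%. Among 27 windows of other NRF2 targets measured here, 7 (25.9%) held the NRF2 core and 1 (3.70%) the AP-1 core. The NRF2 core was in 3 of the 11 called higher at 24 h by limma and in 4 of the 16 not called, a similar share. A match is a description of letters, and its absence says only that these letters are not in the window.

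The 30 bases around these matches are set beside those around every NRF2 core in the windows of GCLM, ME1 and TXNRD1, the 3 that held one among 11 NRF2 targets with a window that were called higher at 24 h, so that the cores can be compared. The stretches of the 4 targets that held the core but were not called are not shown. Each stretch shown is read on the strand on which the core begins with TGA, and capitals mark the NRF2 core or, in OSGIN1, the AP-1 core. The stretches shown lie at chr16:83953131-83953160 (plus strand) for OSGIN1, chrX:15493289-15493318 (plus) for PIR and chr1:93909446-93909475 (plus) for GCLM. Those of ME1 lie at chr6:83431170-83431199 (minus) and chr6:83431022-83431051 (plus), and those of TXNRD1 at chr12:104215669-104215698 (plus) and chr12:104215760-104215789 (minus). The stretch of PIR and the first of ME1 hold both cores, and the other 4 NRF2 core stretches lack the AP-1 core.
OSGIN1: acgggcccctgcTGACTCAcgcttatgaaa
PIR: agcctcaccgTGACTCAGCgcttcgcggcc
GCLM: tggaagacaaTGACTAAGCagaaatcgtag
ME1, first: atctcctgccaTGACTCAGCgcttctcgca
ME1, the other: gctgctggggTGACGGTGCtgactgcagct
TXNRD1, first: tacacgggctaTGACTTCGCtgttgtcacc
TXNRD1, the other: ctgtgggaacTGACGGAGCcgaaggacgcc

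RMA log2 values were compared as the authors deposited them. The median log2 value of an array was 6.10 and 6.24 at 24 h, against 6.17 and 6.20 at 0 h. Limma called 172 of 20893 probe sets higher at 24 h (0.823%) and 25 lower (0.12%), at an adjusted p under 0.05. The 197 calls became 392 without replicate 2 of 24 h, 27 without replicate 1 of 0 h and 53 without replicate 2 of 0 h. Background is judged below by a pair of log2 levels: a dim line of 5.70, from olfactory receptor genes, and a higher floor of 7.56, from negative control probe sets. All 10 measured K562 and erythroid markers averaged above the floor, against 0 of 6 lymphocyte markers, 1 of 8 monocyte and granulocyte markers and 3 of 8 fibroblast, epithelial and endothelial markers.

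OSGIN1 was far higher after hemin than before it. As in any RNA pooled over a culture, a smaller number of cells with the RNA and a lower amount per cell cannot be told apart. Its log2 values were 14.30 and 13.65 at 24 h, against 7.15 and 7.40 at 0 h. Both arrays at 24 h stood above both at 0 h, with a gap of 6.25 on the log2 scale between the nearest arrays. The mean was 13.98 ± 0.46 at 24 h and 7.28 ± 0.18 at 0 h (SD, n = 2 each). The log2 difference was 6.70 (limma's moderated standard error 0.34). Both arrays at 0 h lay above the dim line but below the floor, so against the floor OSGIN1 was at least 85.2-fold higher at 24 h. Its level before hemin is therefore not well above background, while the level after hemin is.

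OSGIN2, the paralog of OSGIN1, was not called. Its log2 values were 10.10 and 9.77 at 24 h, against 9.52 and 10.11 at 0 h, and the time points overlapped. The log2 difference of OSGIN2 was 0.12 (standard error 0.34, adjusted p = 0.92 from limma). The nearest measured genes on either side of OSGIN1 in the RefSeq gene order are MLYCD, which encodes malonyl-CoA decarboxylase, and NECAB2, a calcium-binding protein. MLYCD had a log2 difference of 0.23 (standard error 0.43) and NECAB2 of -0.55 (standard error 0.42), and neither was called by limma (adjusted p of 0.87 and 0.64). Both were below the floor in all 4 arrays, so these values do not show whether their RNA changed.

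UGDH was the next largest of the 4. Its log2 values were 12.19 and 12.13 at 24 h, against 9.40 and 9.62 at 0 h. The time points did not overlap, and the nearest arrays lay 2.51 apart on the log2 scale. The mean was 12.16 ± 0.05 at 24 h and 9.51 ± 0.15 at 0 h (SD, n = 2 each). The log2 difference was 2.65 (limma's moderated standard error 0.31), or 6.28-fold. All 4 arrays were above the floor, which makes UGDH the only one of the 4 genes measured above both background levels at both times. Its measured difference ranked 64 among the 17687 named genes, which is a description, since UGDH was chosen with this change in view. The other 3 genes are given no rank because they were below the floor at 0 h. On either side of it lie LIAS, lipoic acid synthetase, and SMIM14. Neither neighbour was called by limma, with log2 differences of -0.42 (standard error 0.34, adjusted p = 0.66) for LIAS and -0.02 (standard error 0.39, adjusted p = 0.99) for SMIM14. LIAS was below the floor in 3 of 4 arrays and SMIM14 in all 4, which limits these values too.

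PIR was higher at 24 h by a smaller step. Its log2 values were 8.79 and 8.96 at 24 h, against 7.26 and 7.46 at 0 h. Again the time points did not overlap, with 1.33 between the nearest arrays. The mean was 8.88 ± 0.12 at 24 h and 7.36 ± 0.14 at 0 h (SD, n = 2 each). The log2 difference was 1.51 (limma's moderated standard error 0.31). Both arrays at 0 h lay below the floor, against which PIR was at least 2.48-fold higher. The nearest measured neighbours of PIR were VEGFD and CLTRN, and both stayed under the dim line on every array.

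TRIM16 differed least. Its log2 values were 6.62 and 6.49 at 24 h, against 6.17 and 5.85 at 0 h. The time points did not overlap, but the nearest arrays were only 0.31 apart on the log2 scale. The mean was 6.55 ± 0.10 at 24 h and 6.01 ± 0.23 at 0 h (SD, n = 2 each). The log2 difference was 0.54 (limma's moderated standard error 0.32). All 4 arrays lay above the dim line and below the floor, so no fold is given against the floor. TRIM16 and TRIM16L are related in sequence, and whether RNA of TRIM16L reaches the TRIM16 probe set was not tested. The measured neighbours of TRIM16 were FBXW10B, under the dim line on every array, and ZNF286A, a zinc finger gene, with a log2 difference of -0.20 (standard error 0.39, adjusted p = 0.88 from limma), below the floor in 3 of 4 arrays.

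**Figure D1:**
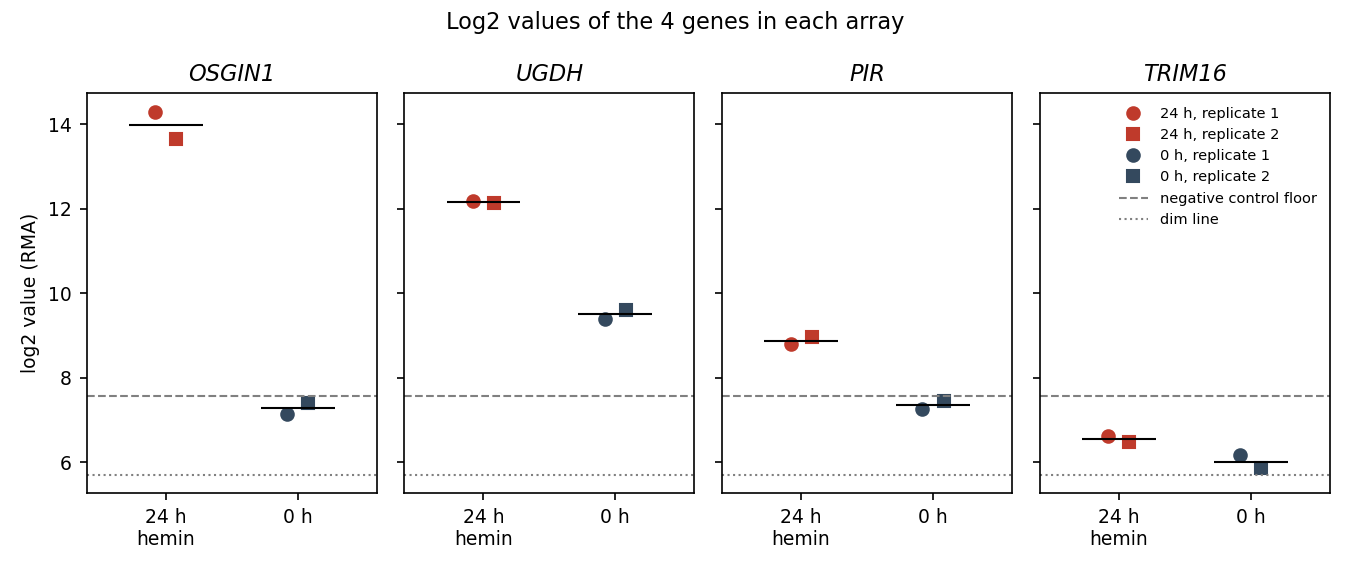
Log2 values of OSGIN1, UGDH, PIR and TRIM16 in each array, with the arrays after 24 h of hemin left of those at 0 h, circles for replicate 1, squares for replicate 2 and a bar at the mean; the dashed line is the negative control floor (7.56) and the dotted line the dim line (5.70). OSGIN1 stands at 13.65 or more at 24 h and at 7.40 or less at 0 h, and all 4 TRIM16 values lie between the 2 lines.

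OSGIN1 and UGDH, 2 of the 4 genes, were among the probe sets that limma called higher, which make up 0.823% of all probe sets, and PIR and TRIM16 were not. In all 4, both arrays at 24 h stood above both at 0 h, which held for 18.8% of all probe sets. Nothing is read from either count, since the genes were chosen from this contrast. The rule of that choice names the level at 0 h and the change, not the spread between replicates. Whether earlier results that depended on the spread entered it is not known. The pooled SD of the log2 values was 0.11 for UGDH, 0.13 for PIR, 0.17 for TRIM16 and 0.35 for OSGIN1. For the first 3 it lay below the lower quartile of all named genes, 0.19, and for OSGIN1 above their median, 0.30. The named genes were not matched to them for level. Within each time point the 4 genes did not order the arrays alike. Replicate 1 was the higher array at 24 h for OSGIN1, UGDH and TRIM16 and the lower one for PIR, while at 0 h it was the lower one for OSGIN1, PIR and UGDH and the higher one for TRIM16.

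**Figure D2:**
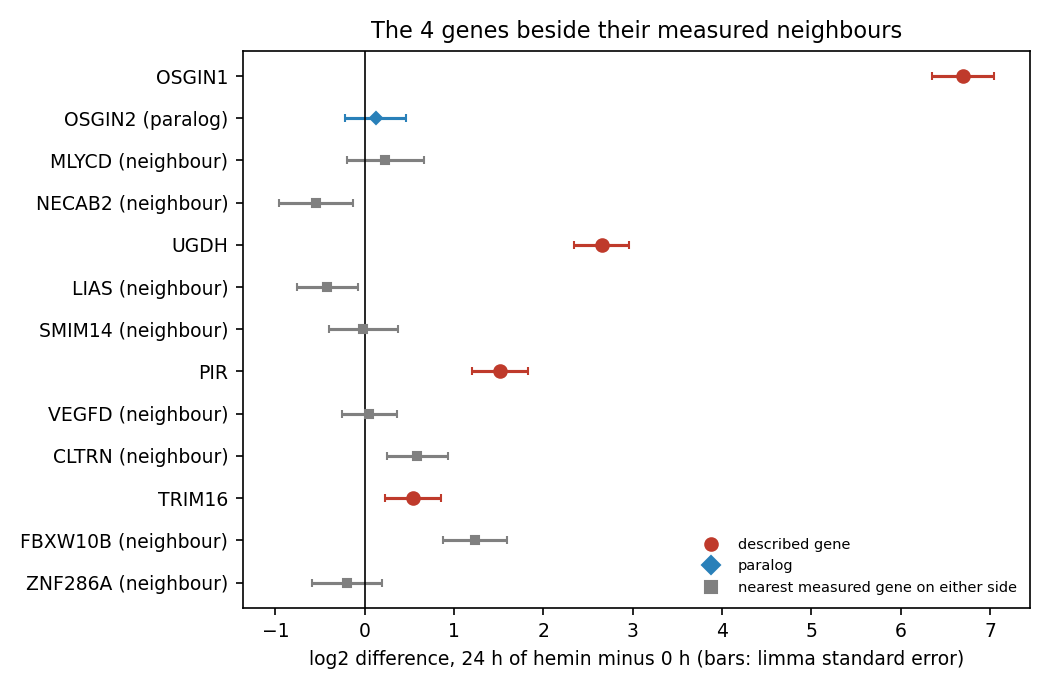
Log2 difference, 24 h of hemin minus 0 h, of the 4 genes (red circles), the paralog OSGIN2 (blue diamond) and the nearest measured gene on each side (grey squares), with bars for limma's standard error. The 4 genes lie at 6.70 (OSGIN1), 2.65 (UGDH), 1.51 (PIR) and 0.54 (TRIM16), and each neighbour was below the negative control floor in at least 3 of 4 arrays.

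For each gene, the 3 genes were taken whose 4 log2 values, each minus the gene's own mean, lay at the smallest Euclidean distance over the 4 arrays. This is a description of 4 points. For OSGIN1 they were SLC7A11, the cystine transporter (distance 0.80 on the log2 scale), ZFAND2A, an arsenite-inducible zinc finger protein (1.48), and CXCL8, interleukin-8, which was below the dim line in both arrays at 0 h (1.56). For UGDH they were MANF, a secreted protein of the endoplasmic reticulum stress response (0.22), TXNRD1, thioredoxin reductase (0.23), and CTH, which makes cysteine from cystathionine (0.24). For PIR they were BNIP3, a mitochondrial protein of the BCL2 family (0.11), MEF2D, a transcription factor (0.13), and BCL9L, a coactivator of beta-catenin (0.14). For TRIM16 they were ATF6B, a transcription factor of the endoplasmic reticulum (0.05), LIG3, a DNA ligase (0.06), and NPFFR1, a neuropeptide receptor that was below the dim line in every array (0.06). Among these alike genes, MANF, CTH and MEF2D were also below the floor in both arrays at 0 h.

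The other genes of the pathway were read from lists, with 1 probe set per gene. Of 35 measured NRF2 targets, without the 4 genes above, 13 rose and 0 fell at an adjusted p under 0.05 from limma, against 0.823% and 0.12% of all probe sets. The median log2 difference of the 35 was 1.26, beside -0.06 over all probe sets, and 8 of the 35 stayed under the dim line on every array. HMOX1, singled out with its values known, was among these 8, at 4.36 and 4.30 at 24 h, against 3.71 and 4.29 at 0 h. Its values do not show whether its RNA changed. The 4 with the largest rise were SLC7A11, ME1, GCLC and NQO1. SLC7A11 stood at 15.36 and 15.18 at 24 h, against 9.30 and 8.70 at 0 h, a log2 difference of 6.28. NQO1, a quinone reductase often used as a readout of NRF2, stood at 15.80 and 15.46 at 24 h, against 11.59 and 12.15 at 0 h, a log2 difference of 3.77 (standard error 0.34, adjusted p = 0.0013 from limma). GCLC, the catalytic subunit of glutamate-cysteine ligase, had a log2 difference of 4.08, and ME1, malic enzyme, one of 4.46. The called targets thus spanned log2 differences of 1.94 (SLC48A1, a heme transporter) to 6.28. Without replicate 1 of 0 h, 6 of these targets were called.

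NRF2 and its regulators were counted next. Of 14 measured, limma called SQSTM1 and BACH2 higher and 0 lower at an adjusted p under 0.05, against 0.823% and 0.12% of all probe sets. The median log2 difference was 0.53. SQSTM1, an autophagy receptor that binds KEAP1, stood at 16.18 and 15.81 at 24 h, against 12.32 and 12.26 at 0 h (log2 difference 3.70, standard error 0.32, adjusted p = 0.0010 from limma). BACH2, a repressor related to BACH1, was called (adjusted p = 0.014 from limma), but it was below the floor in both arrays at 0 h, against which it was at least 1.51-fold higher, and limma no longer called it without replicate 1 of 0 h (log2 difference 2.42, adjusted p = 0.13) or without replicate 2 (2.85, adjusted p = 0.10), against 2.63 with all arrays. A fit without 1 array leaves a single array at that time point, which is assumed to vary like the arrays of the other. BACH1, named outside the rule as the heme-sensitive repressor, stood at 13.19 and 12.39 at 24 h, against 11.26 and 10.71 at 0 h, with no overlap (log2 difference 1.81, standard error 0.38, adjusted p = 0.066 from limma). NFE2L2 itself, named outside the rule because it encodes NRF2, stood at 11.65 and 11.22 at 24 h, against 10.65 and 11.29 at 0 h, and the time points overlapped (log2 difference 0.47, standard error 0.35, adjusted p = 0.64 from limma). KEAP1, named outside the rule because it holds NRF2 in the cytoplasm, had a log2 difference of 0.59, with no overlap of the time points (standard error 0.32, adjusted p = 0.48 from limma). These are RNA levels, while NRF2 is known to be controlled through its protein.

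Genes that work beside single members were counted in the same fit. Of 13 genes reported to act with TRIM16 in lysosome removal, limma called 3 higher and 0 lower at an adjusted p under 0.05. The shares over all probe sets were 0.823% and 0.12%. The median log2 difference of the 13 was 0.36. The 3 were GABARAPL1, a protein of the autophagosome membrane, SQSTM1, counted in this list too, and ULK1, the kinase that starts autophagy. GABARAPL1 was higher by 5.04 and SQSTM1 by 3.70 on the log2 scale. ULK1 stood at 9.35 and 8.73 at 24 h, against 7.18 and 6.77 at 0 h, where both arrays were below the floor, and against the floor it was at least 2.79-fold higher. GABARAPL1 was below the floor in 1 of 2 arrays at 0 h. With all arrays the log2 difference of ULK1 was 2.07. It was no longer called by limma without replicate 1 of 24 h (log2 difference 1.76, adjusted p = 0.067), replicate 1 of 0 h (2.27, adjusted p = 0.12) or replicate 2 of 0 h (1.86, adjusted p = 0.16). LGALS3 and TFEB, which encode galectin-3 and a transcription factor of lysosomal genes, were singled out with their values known. TFEB stayed under the dim line on every array, and LGALS3 on 3 of 4. Of 63 other TRIM genes, 0 were called. Without adjustment, 4 had p below 0.05 by limma in the higher direction and 2 in the lower. The methods' own test gave the same counts, but not for all the same genes. Their median log2 difference was 0.07, and 29 stayed under the dim line on every array. TRIM5, a restriction factor of retroviruses named by the rule, had a measured log2 difference of 1.13 (standard error 0.31, adjusted p = 0.15 from limma), but both its arrays at 0 h were below the floor, and with values raised to the floor the log2 difference was 0.27.

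Of 10 measured partners of PIR, BCL3 not among them, limma called NFKB2 higher and 0 lower at an adjusted p under 0.05. Over all probe sets it called 0.823% higher and 0.12% lower. NFKB2 encodes the p100 precursor of NF-kappaB, and stood at 8.34 and 7.99 at 24 h, against 6.54 and 6.26 at 0 h (log2 difference 1.76, standard error 0.32, adjusted p = 0.043 from limma). Both arrays at 0 h were below the floor, against which NFKB2 was at least 1.52-fold higher. NFKB2 was not called when replicate 1 of 24 h (log2 difference 1.58, adjusted p = 0.13 from limma), replicate 1 of 0 h (1.90, adjusted p = 0.13) or replicate 2 of 0 h (1.62, adjusted p = 0.17) was left out. The median log2 difference of the 10 was 0.01, and the lowest was -0.93, of NFIA, which limma did not call.

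The genes before and after UGDH in its route were read in the same way. Of 28 measured genes for UDP-glucose supply and for the transport and use of UDP-glucuronate, 0 were called by limma. Without adjustment, p was below 0.05 for 0 in the higher direction and 2 in the lower, and by the methods' own test for 0 in either direction. The median log2 difference was -0.10, and 13 of the 28 stayed under the dim line on every array. The highest difference of the 28 was 0.87, of EXT1, which was among these 13. PGM2, named by the rule, had the largest difference in size, with 10.05 and 10.26 at 24 h, against 10.88 and 11.29 at 0 h (log2 difference -0.93, standard error 0.32, adjusted p = 0.26 from limma). UGP2, singled out with its values known, makes the UDP-glucose that UGDH oxidizes. It stood at 8.13 and 8.08 at 24 h, against 8.65 and 9.08 at 0 h, with no overlap (log2 difference -0.76, standard error 0.32, adjusted p = 0.36 from limma).

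**Figure D3:**
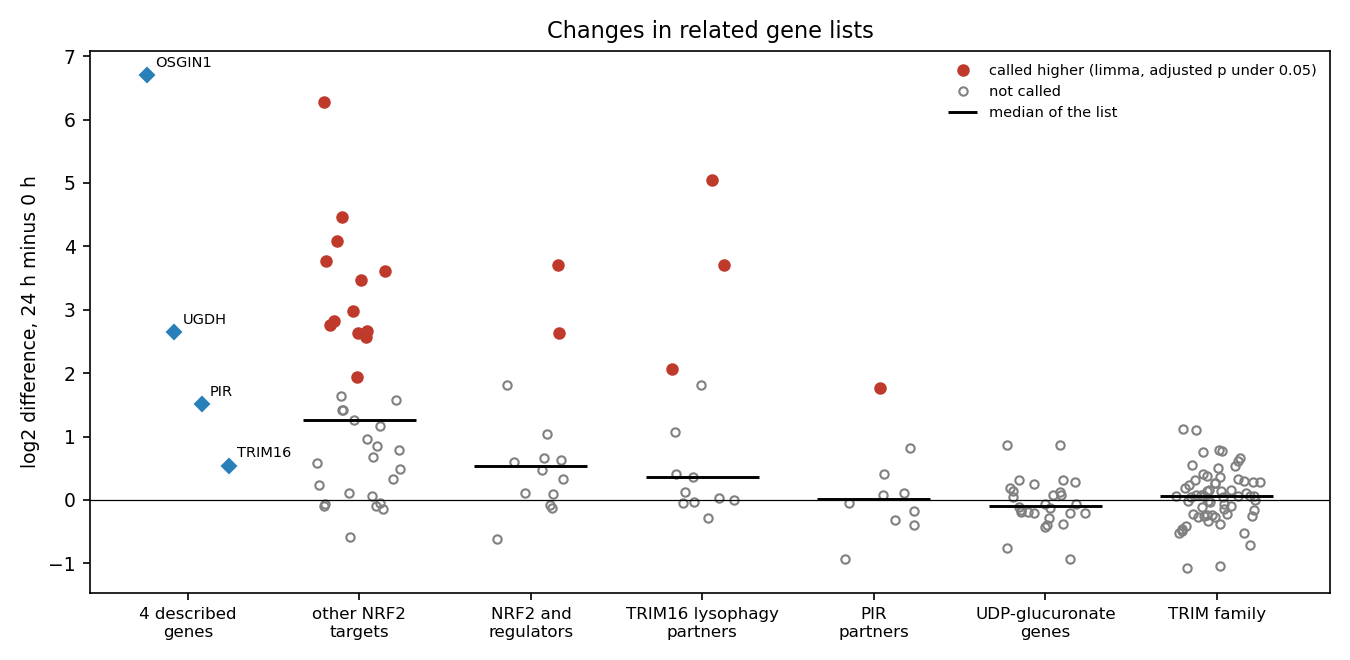
Log2 difference, 24 h of hemin minus 0 h, of the 4 genes (blue diamonds) and of each measured gene of 6 lists, with genes called higher by limma in filled red, other genes as open circles and a bar at the median of each list. Calls stand in 4 of the 6 lists, 13 of them among the other NRF2 targets (median 1.26), and none among the 28 UDP-glucuronate genes and the 63 other TRIM genes.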

How the data were processed

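RNA was hybridized to Human Clariom S arrays. The authors processed them in Affymetrix Expression Console with RMA (background correction, log2 and quantile normalization) and deposited 1 log2 value per probe set and array; the sources used here give neither versions nor a genome build. Of 24351 rows, 2903 control and 555 unmapped rows were left out and 20893 transcript probe sets tested, of which 17705 had 1 gene symbol, 0 several and 3188 none in GEO's platform annotation with RefSeq names. The highest-mean probe set stands for a gene. The difference, 24 h minus 0 h, was fitted without covariates by limma 3.58.1 under R 4.3.3 and tested two-sided, after the script had been tested on simulated data. Limma moderates the variance of each probe set with a prior taken over all probe sets (7.47 degrees of freedom, beside 2 residual). The standard errors given here use this moderated variance. P-values were adjusted over all probe sets (Benjamini-Hochberg, threshold 0.05). The dim line and the floor are the 95th percentiles of the means of 349 olfactory receptor and 612 negative control probe sets. For an "at least" fold, values below the floor were raised to it. An array has no read depth, and 2 arrays per time point limit the precision.

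The genes and lists were chosen with earlier results of these data known. Named are the 4 genes, up to 4 called genes per list with the largest change (or the largest difference where none was called), OSGIN2, the nearest measured neighbours and the 3 most alike genes; others are said to be outside this rule. Promoter windows are RefSeq's of GRCh38.p14. The alternatives were a further quantile normalization, median centring, a dim filter, a single probe set per gene, the replicate block, a variance with trend and robust fit, the methods' ANOVA, leaving out each array, and raising values to the dim line; raising them to the floor was added after the data were seen.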

Additional observations from a re-analysis of the deposited data

How the results depend on the processing

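The 4 genes kept their direction under each alternative run, except that raising values to the floor leaves TRIM16 with a log2 difference of 0. The same step lowers that of PIR to 1.31, still higher at 24 h. Leaving out each array in turn gave 6.38 to 7.02 for OSGIN1, 2.54 to 2.76 for UGDH, 1.41 to 1.62 for PIR and 0.38 to 0.70 for TRIM16. Of all probe sets, 197 were called, against 546 with a trend and robust variance, 1930 by the methods' ANOVA at its unadjusted threshold (859 higher and 1071 lower, beside 172 and 25 from limma) and 0 after Benjamini-Hochberg adjustment on 2 residual degrees of freedom, and 27 to 392 without 1 array. The ANOVA gave after adjustment 0 other NRF2 targets, 0 regulators, 0 PIR partners and 0 TRIM16 partners. Unadjusted, it gave 5 regulators, 2 PIR partners, 5 TRIM16 partners and 6 other TRIM genes. Without 1 array, the calls numbered 6 to 15 other NRF2 targets, 1 to 3 regulators, 0 to 1 PIR partners and 2 to 4 TRIM16 partners. The arrays share replicate numbers only: deviations of same-numbered arrays correlated at r = -0.003, and with the replicate number as a block 429 probe sets were called. Other counts stayed within 1.5 times; the cause of these changes was not tested. Levels below the floor, as of OSGIN1 and PIR at 0 h and TRIM16 at both times, limit what a fold can show.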
